A study of Mus musculus with 24 samples.

Results

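The fatty acid oxidation and ketogenesis genes described here are 37 mouse genes chosen by name, out of 22911 gene symbols with a probe on the array. A probe was counted for a gene when its accession, without the version, belongs to that symbol in RefSeq, and the brightest probe stood for the gene. Membership was set by gene name, and the list was drawn up with earlier results of these arrays known. The arrays were hybridized with RNA from liver, kidney, lung and white adipose tissue (WAT) of 3 mice aged 10 weeks (10W, young) and 3 mice aged 90 weeks (90W, aged) per tissue, 24 arrays in all. Every mouse is labelled as a C57BL/6J male, and the labels give no treatment or altered gene. Whether 1 mouse gave several tissues is not stated. The aged livers are numbered 1, 2 and 4. Levels are given as the log2 of the background-subtracted fluorescence signal minus the 75th percentile of the array, so a level of 0 is the brightness of the 75th percentile probe on that array. Changes are log2 differences, 90W minus 10W, and the SD is over 3 mice. The 6 arrays of a tissue, young and aged, lie on 1 slide that holds no other tissue, so tissue and slide cannot be told apart. With 3 mice on each side, the smallest two-sided p that exact permutation allows is 0.1. Changes were therefore tested by limma, which pools the spread over all genes, and called at an adjusted p under 0.05.

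Fatty acids enter the mitochondrion as acylcarnitines, made by the carnitine palmitoyltransferases and carried by a translocase, and are then shortened in repeated rounds of dehydrogenation, hydration, a further dehydrogenation and thiolysis. Electrons from the dehydrogenases pass through the electron transfer flavoprotein into the respiratory chain. Very long and branched chains are shortened in peroxisomes by a parallel set of enzymes. In the liver, much of the resulting acetyl-CoA becomes ketone bodies during fasting, while the proximal tubule of the kidney burns fatty acids as its main fuel. PPARα, encoded by Ppara, is the nuclear receptor that induces most of these genes, mainly in liver and kidney.

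In young mice, the liver held the highest level of 28 of the 37 members, and in 23 of these every young liver was above every young mouse of the tissue that came next. The kidney was highest for 7 members, among them Cpt1b, Acadm, Acox3 and Acot4. WAT was highest for Abcd2 and Crat. Lung was the lowest tissue for 27 members. Ppara followed this order, with young means of 5.88 in liver, 4.05 in kidney, 0.08 in WAT and -0.29 in lung, and its WAT and lung values overlapped. Cpt1a, the rate-setting acyltransferase of liver and kidney, had means of 5.89 and 5.62 there, which overlapped, against 3.70 in lung and 3.24 in WAT. Bdh1, the mitochondrial enzyme that reduces acetoacetate to β-hydroxybutyrate, had means of 5.70 in liver and 4.70 in kidney but -0.35 in lung and -1.73 in WAT. The labelled tissues were checked by the log2 summed signal of marker lists in young mice. Hepatocyte markers summed to 12.3 to 12.5 in liver and to at most 9.06 elsewhere, proximal tubule markers to 10.4 to 10.6 in kidney and at most 3.08 elsewhere, lung epithelial markers to at least 10.965 in lung and at most 4.18 elsewhere, and adipocyte markers to 10.1 to 10.7 in WAT and at most 6.86 elsewhere.

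**Figure D1:**
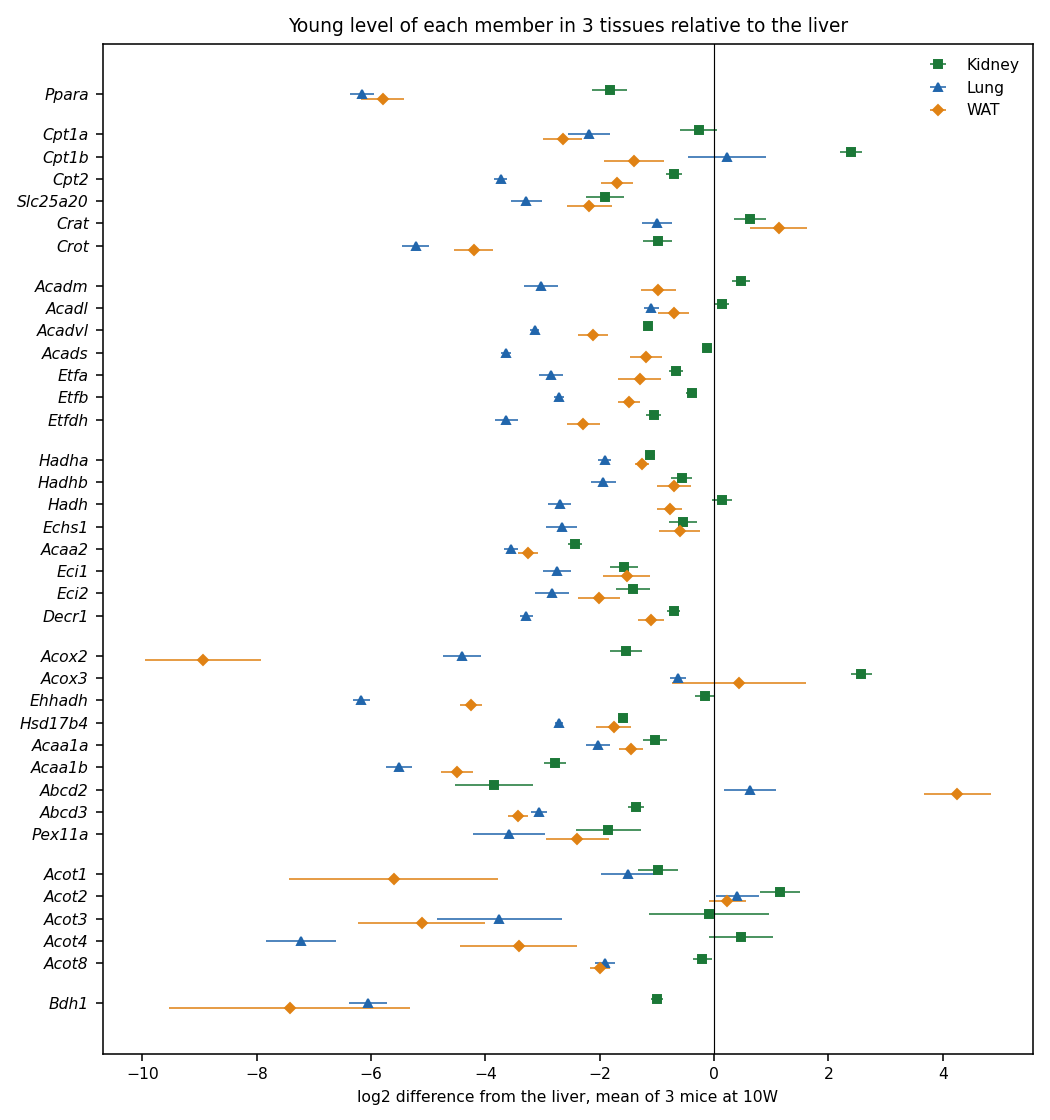
Mean level of each member at 10W in kidney (squares), lung (triangles) and WAT (diamonds) minus its mean in the liver, on the log2 scale; bars are the SDs of both means combined (3 mice each) and genes are grouped by role. Most points lie left of 0, since the liver was highest for 28 members; WAT lies far to the right only for Abcd2, and the kidney for Cpt1b and Acox3.

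The promoters of the members were read from RefSeq (build GRCm38.p6, 250 bases before to 50 bases after the annotated start), because a receptor such as PPARα acts through the DNA next to its targets. The table holds a promoter for 31 members and none for Acaa2, Hsd17b4, Crat, Cpt1b, Abcd2 and Decr1. They were searched on both strands for a pair of AGGTCA half-sites in the same direction with 1 base between them, the pattern known as DR1 that PPARα binds together with RXR, allowing 2 mismatches in the 12 fixed letters. A match was found for 5 of the 31 members (16.1%), beside 4.4% of all 27025 genes in the table; a match is a description of letters, not a shown site. The stretches with a match upstream of the start are shown 5′ to 3′ on the strand of the gene, with the match in capitals, to let the reader see how far each lies from the consensus.
Echs1, chr7:140116432-140116564, minus strand: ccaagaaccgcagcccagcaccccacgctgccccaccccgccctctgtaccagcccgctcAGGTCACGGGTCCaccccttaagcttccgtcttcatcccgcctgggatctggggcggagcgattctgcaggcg
Etfa, chr9:55512248-55512380, minus strand: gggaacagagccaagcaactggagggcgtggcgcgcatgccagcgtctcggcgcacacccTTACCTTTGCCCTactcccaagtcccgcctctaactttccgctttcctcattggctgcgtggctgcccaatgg
Acot4, chr12:84038306-84038378, plus strand: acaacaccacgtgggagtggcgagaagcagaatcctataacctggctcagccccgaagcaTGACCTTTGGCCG
The match in Echs1 is read on the strand of the gene and starts 83 bases before the annotated start. In Etfa and Acot4 it is read on the opposite strand, and starts 77 and 13 bases before it. Acox2 and Slc25a20 hold a match just after the start. Each of the 5 matches has 2 mismatches.

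Hadha and Hadhb, the α and β subunits of the mitochondrial trifunctional protein, lie head to head on chromosome 5, with 273 bases between their annotated starts. Their promoters therefore share 228 bases, shown on the plus strand, the strand of Hadhb, since the genes are transcribed away from the same stretch.
Hadha and Hadhb, chr5:30155003-30155230, plus strand: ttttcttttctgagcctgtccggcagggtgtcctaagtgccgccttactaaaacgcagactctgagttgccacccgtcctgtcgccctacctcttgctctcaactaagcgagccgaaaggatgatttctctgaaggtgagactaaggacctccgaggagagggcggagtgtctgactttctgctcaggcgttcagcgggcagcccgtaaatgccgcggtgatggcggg
No DR1 match at this tolerance was found in it.

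In the aged kidney, 32 of the 36 members tested were lower than in the young kidney and none was higher (limma, no member higher at an unadjusted p under 0.05, beside 22.0% of all genes, and none by Student's t-test with adjustment). Over all 31503 genes tested in the kidney, 42.6% were called lower and 20.6% higher, so the members' 88.9% stands beside a tissue in which most genes were called. In the aged liver, 16 of 37 members were lower and 1, Abcd2, was higher. There 17.0% of all genes were lower and 10.5% higher, against 43.2% of the members lower. In the lung and in WAT no member was called in either direction by limma, nor by Student's t-test with adjustment. By limma the background there was also smaller, 2.89% lower and 2.72% higher in the lung and 0.579% lower and 2.01% higher in WAT. By the adjusted t-test, 0.452% of all genes were lower and 0.343% higher in the lung. In WAT the t-test called 0 genes lower and 1 higher of 30061, so it could hardly have called a member. At an unadjusted p under 0.05, 11 of 37 members were lower and 1 higher in the lung, beside 17.7% and 9.19% of all genes. In WAT 3 of 37 were lower and 1 higher, beside 9.42% and 9.86% of all genes, so the share of members lower there was near the background. The median change of the members was -0.87 in the kidney, -0.75 in the liver, -0.21 in the lung and -0.19 in WAT. Over all genes tested in these tissues it was -0.24, -0.20, -0.08 and -0.06. With quantile normalization the members' median was -0.42 in the kidney and -0.47 in the liver, beside -0.16 and -0.11 over all genes. With the scaling as reported and 1 WAT mouse left out, the members' median in WAT lay between -0.272 (without young mouse 1) and -0.079 (without young mouse 2). Over all genes it was -0.05 and -0.059 in these 2 settings.

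Counting mice rather than tests gave the same order of tissues, an order that all genes also followed. Every aged mouse was below every young mouse for 32 members in the kidney (88.9%, beside 47.6% of all genes) and 26 in the liver (70.3%, beside 33.1%). The same held for 16 in the lung (43.2%, beside 24.2%) and 5 in WAT (13.5%, beside 15.0%). The members' share in WAT was thus below that of all genes. The reverse held for 0 members in the kidney (23.1% of all genes), 1 in the liver (16.8%), 1 in the lung (11.6%) and 3 in WAT (13.7%). All 36 members tested in the kidney, 36 of 37 in the liver and 30 of 37 in the lung had a negative change, whereas WAT had 23 negative and 14 positive changes. The kidney and liver calls shared 15 genes, which are 15 of the 16 called lower in the liver and 15 of the 32 called lower in the kidney. The exception among the liver calls was Slc25a20. Since 88.9% of the members tested were called lower in the kidney, most liver calls would be shared at that rate alone. The overlap over all genes was not counted.

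**Figure D2:**
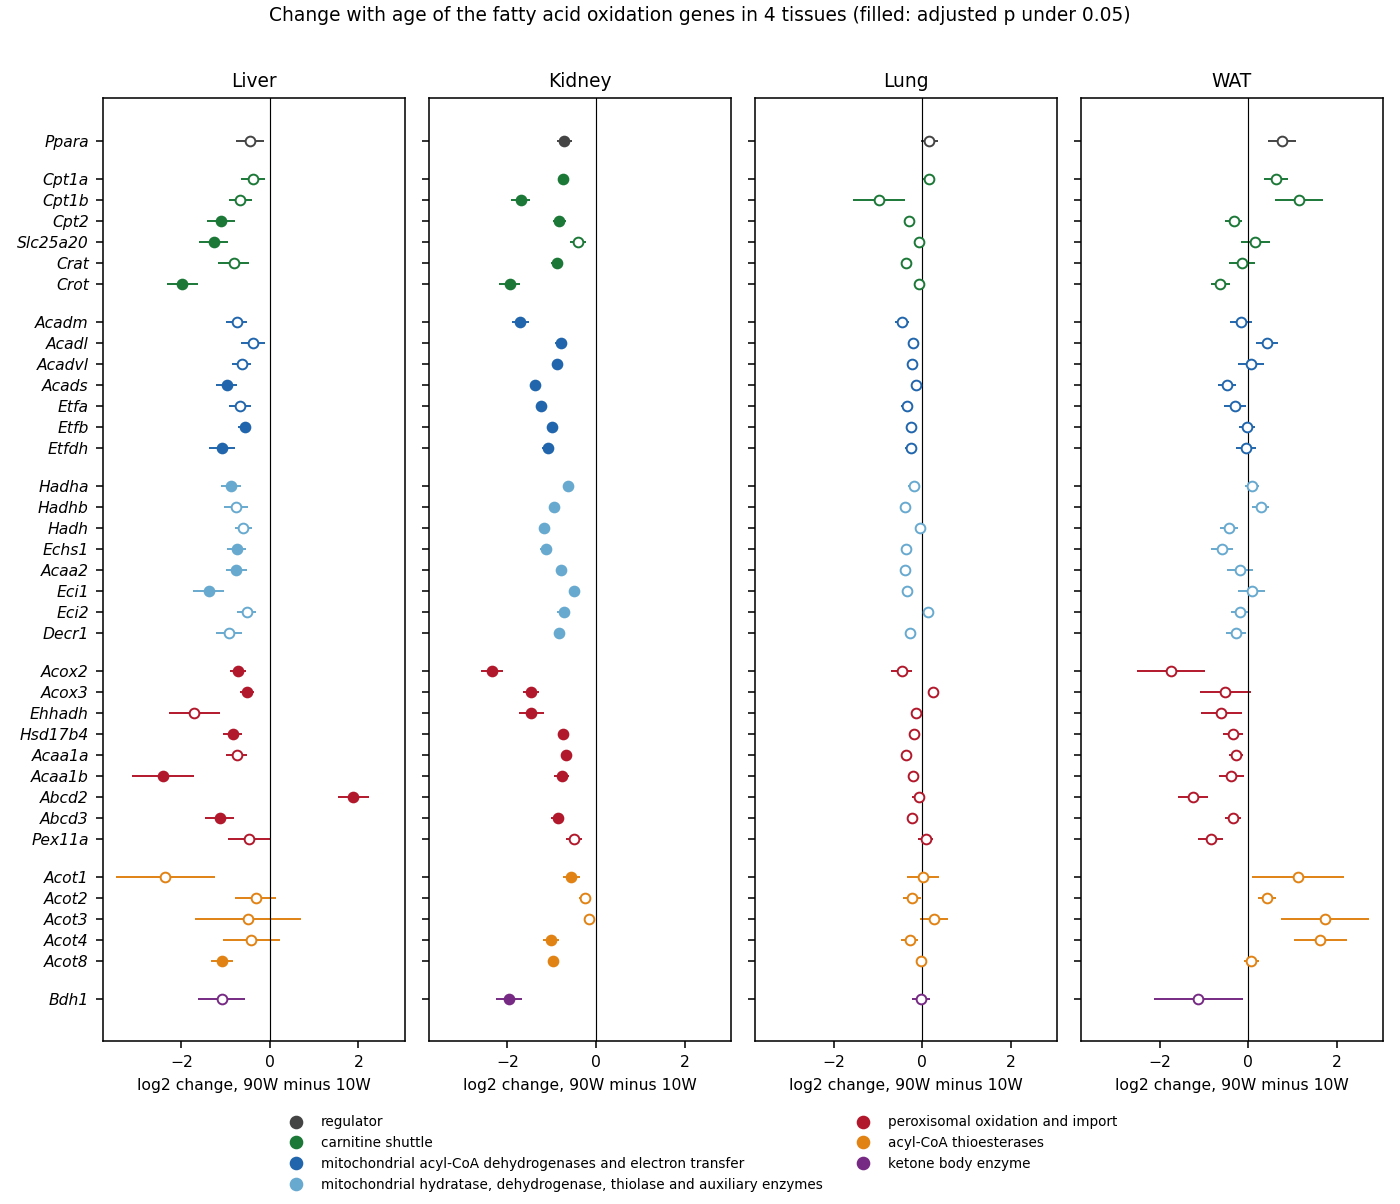
Change in log2 signal from 10W to 90W of each member in liver, kidney, lung and WAT, with the standard error from limma (3 mice per age); filled circles have an adjusted p under 0.05, open circles do not, and colours mark the role. Kidney points lie left of 0 and are filled for 32 genes, liver points are filled for 17, and no lung or WAT point is filled; Abcd2 was not tested in the kidney.

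These counts depended on the scaling and, in the liver, on single mice. When arrays were scaled to their spike-in control spots, the median change over all genes became 0.15 in the kidney and -0.09 in the liver, and that of the members -0.48 and -0.65. The members stayed below the median of all genes, and 20 were called lower in the kidney (14.0% of all genes) and 3 in the liver (3.51% of all genes). Relative to the spike-in spots, the log2 75th percentile was between -3.92 and -3.60 in young kidneys and between -3.50 and -3.30 in aged kidneys, without overlap. In the liver it was between -4.25 and -4.09 in young and between -4.46 and -3.70 in aged mice. Leaving out 1 mouse kept the kidney count between 31 and 33. The liver count of 16 fell to 1 without young mouse 1, 1 without young mouse 2, 3 without young mouse 3, 2 without aged mouse 1 and 7 without aged mouse 2, and rose to 25 without aged mouse 4. Over all genes, the share called lower in the liver was then 4.33%, 3.57%, 11.6%, 9.41%, 9.67% and 15.9%, in the same order, against 2.70%, 2.70%, 8.11%, 5.41%, 18.9% and 67.6% of the members. The members' share was therefore above that of all genes with all mice, without aged mouse 2 and without aged mouse 4, and below it without any other single mouse. In the kidney it stayed between 86.1% and 91.7% with 1 mouse left out, against 35.6% to 41.1% of all genes. Of 18 other settings per gene, 18 of the 32 kidney calls passed under all, while none of the 17 liver calls did.

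Cell type markers also changed with age, including in the lung, where no member was called. In the kidney, 8 of 8 proximal tubule markers were lower at 90W, and the log2 of their summed signal was 10.4 to 10.6 in young and 9.13 to 9.65 in aged mice. Fibroblast markers were higher there for 7 of 7 (summed level 3.98 to 4.21 in young, 6.30 to 6.76 in aged), and leukocyte markers for 8 of 10, with 1 lower (4.48 to 5.00 in young, 5.35 to 5.81 in aged). Distal and podocyte markers were lower there for 3 of 6 and higher for 2 (8.79 to 9.11 and 7.44 to 8.40), and hepatocyte markers were lower for 6 of 7 (8.89 to 9.06 and 7.49 to 8.24). Adipocyte markers in the kidney were higher for 4 of 7 and lower for 2 (-0.30 to 1.40 and 0.90 to 4.04). In the liver, 2 of 8 hepatocyte markers were lower (12.3 to 12.5 in young, 11.8 to 11.99 in aged), 5 of 7 fibroblast markers were higher (5.82 to 6.16 and 7.11 to 7.30) and 3 of 10 leukocyte markers were higher (5.84 to 6.27 and 6.41 to 6.70). In the lung, adipocyte markers were lower for 3 of 7 (6.08 to 6.86 and 2.71 to 4.20) and fibroblast markers for 1 of 7 (6.74 to 7.11 and 5.40 to 6.03), while leukocyte markers were higher for 3 of 10 (5.60 to 5.68 and 6.16 to 6.54) and erythroid markers for 1 of 3 (5.54 to 7.96 and 9.18 to 9.93). Their part in the members' changes was not tested. In whole tissue, fewer cells of a type and less RNA per cell cannot be told apart.

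Ppara, the regulator, was lower in the aged kidney, where the young mice had levels of 3.80, 4.32 and 4.03 and the aged mice 3.15, 3.28 and 3.55. No aged kidney reached a young one, and the change was -0.72 (standard error 0.17, adjusted p = 0.0106). In the liver the young levels were 5.72, 5.92 and 6.00 and the aged levels 5.39, 4.80 and 6.10. The groups overlapped, because aged mouse 4 was above all young mice, and the change of -0.45 was not called (adjusted p = 0.318). In the lung Ppara was at -0.30, -0.13 and -0.43 in young and 0.24, -0.18 and -0.42 in aged mice. In WAT it was at -0.30, 0.38 and 0.16 in young and 0.28, 1.19 and 1.07 in aged mice. Both groups overlapped in each of these tissues, with changes of 0.17 (adjusted p = 0.599) and 0.77 (adjusted p = 0.260).

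The carnitine shuttle has 6 members, of which 5 were lower in the kidney and 3 in the liver. Cpt1a, which makes acylcarnitines at the outer mitochondrial membrane, had kidney levels of 5.52, 5.71 and 5.63 in young and 4.69, 4.91 and 5.04 in aged mice. All aged kidneys were below all young ones (-0.74, standard error 0.11, adjusted p = 0.00219). In the liver it was at 5.53, 6.06 and 6.08 in young and 5.48, 5.12 and 5.93 in aged mice, which overlapped (-0.38, adjusted p = 0.293). Lung levels were 3.71, 3.50 and 3.89 against 3.83, 3.78 and 3.94, and WAT levels 3.15, 3.39 and 3.18 against 4.36, 3.87 and 3.38. Neither was called, at 0.15 in the lung (adjusted p = 0.474) and 0.63 in WAT (adjusted p = 0.284). Aged WAT mice 1 and 2 were above every young mouse, and aged mouse 3 was not.

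Cpt1b, the isoform known from muscle, was lower in the kidney, at 0.14, 0.27 and 0.15 in young and -2.004, -1.35 and -1.20 in aged mice. The groups did not overlap, with an SD of 0.07 in young and 0.43 in aged mice, and aged minus young was -1.70 (standard error 0.21, adjusted p = 0.000977). Skeletal muscle markers in the same kidneys had a log2 summed signal of 3.10 to 3.32 in young and -0.29 to 0.17 in aged mice, with 2 of 5 lower and 1 higher, and cardiac muscle markers one of 0.56 to 0.62 and 1.00 to 1.56, with 3 of 7 higher and 1 lower. Their part in the kidney change of Cpt1b was not tested. Liver levels were -2.23, -2.38 and -2.03 in young and -2.92, -3.31 and -2.40 in aged mice (-0.66, adjusted p = 0.0893). In the liver the groups did not overlap by a narrow margin, since aged mouse 4 at -2.40 lay next to young mouse 2 at -2.38. Lung levels were -1.47, -1.74 and -2.73 in young and -4.09, -2.72 and -2.07 in aged mice (-0.98, adjusted p = 0.325). The log2 summed signal of the cardiac muscle markers in the same lungs ranged from 6.70 to 8.28 in young and from 4.18 to 7.60 in aged mice, with 0 of 7 called, and its part in the spread of Cpt1b was not tested. WAT levels were -3.08, -4.06 and -3.68 against -2.06, -1.71 and -3.59 (1.15, adjusted p = 0.309). They overlapped, with aged mice 1 and 2 above all young mice.

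Crot, the peroxisomal carnitine octanoyltransferase that hands shortened chains to mitochondria, had the largest change of the shuttle in both tissues. Liver levels were 6.29, 6.54 and 6.06 in young and 4.28, 3.62 and 5.04 in aged mice (-1.98, standard error 0.35, adjusted p = 0.0113). Kidney levels were 5.22, 5.29 and 5.40 in young and 2.83, 3.43 and 3.80 in aged mice (-1.95, standard error 0.24, adjusted p = 0.000903). The groups did not overlap in either tissue, and the liver call passed in 17 of 18 other settings. Cpt2, the inner-membrane transferase, was lower in the liver (-1.10, adjusted p = 0.0403) and in the kidney (-0.82, adjusted p = 0.00467). Slc25a20, the carnitine-acylcarnitine translocase, was lower in the liver (-1.27, adjusted p = 0.0310), while its kidney change of -0.40 was not called (adjusted p = 0.101). Crat, carnitine acetyltransferase, was lower in the kidney (-0.89, adjusted p = 0.00151) and not called in the liver (-0.82, adjusted p = 0.114).

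**Figure D3:**
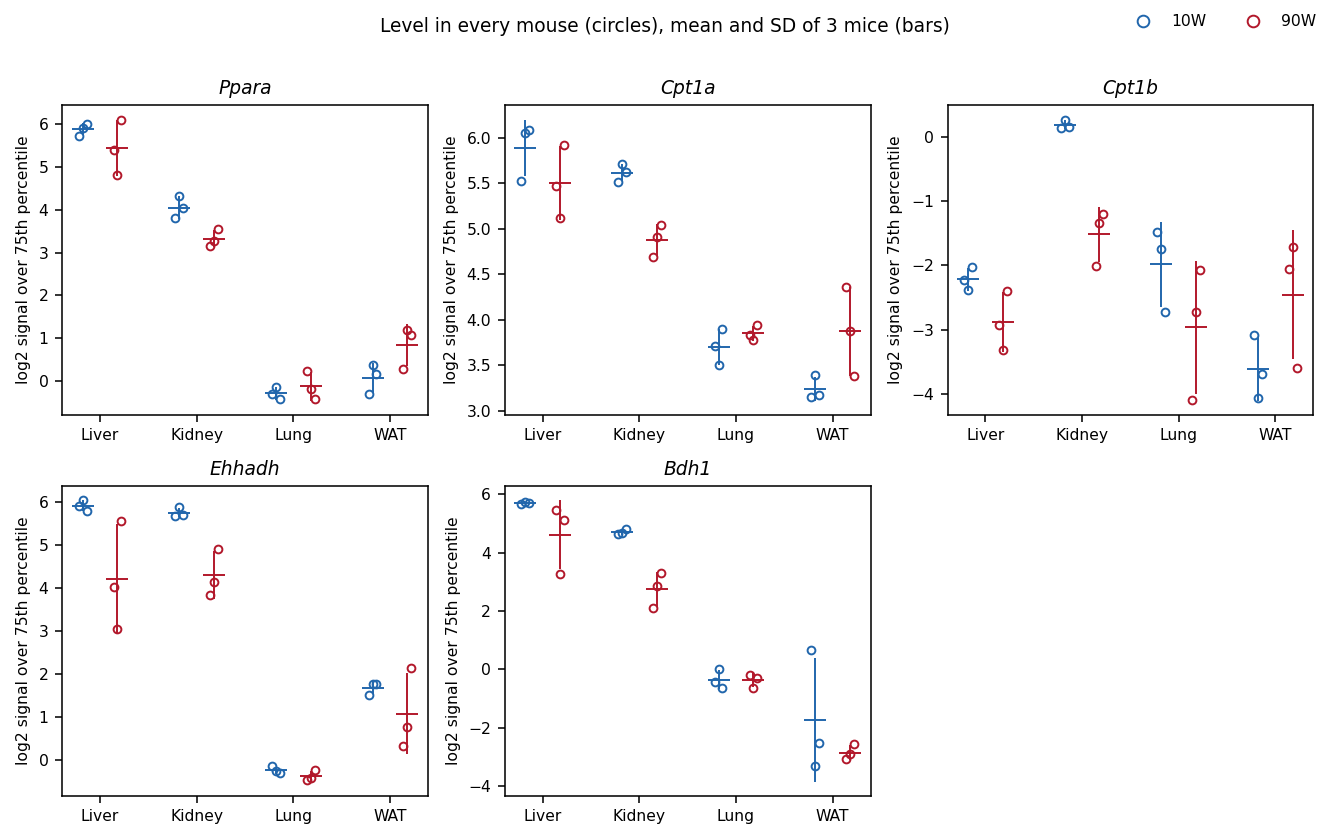
Level of Ppara, Cpt1a, Cpt1b, Ehhadh and Bdh1 in every mouse of liver, kidney, lung and WAT at 10W (blue) and 90W (red), as log2 signal over the 75th percentile of the array; the horizontal mark is the mean and the bar the SD of 3 mice. In the kidney all 5 genes have aged circles below young ones; in the liver aged mice spread more widely than young mice, and in WAT the young mouse 1 of Bdh1 stands apart at 0.67.

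All 7 acyl-CoA dehydrogenase and electron transfer genes were lower in the kidney, and 3 of 7 (Acads, Etfb and Etfdh) were lower in the liver. Acadm, the medium-chain dehydrogenase, had the largest kidney change, with 7.18, 7.35 and 7.37 in young and 5.24, 5.58 and 5.95 in aged mice. The groups did not overlap, and the change was -1.71 (standard error 0.18, adjusted p = 0.000608). In the liver Acadm changed by -0.75 without overlap but was not called (adjusted p = 0.0572). Etfdh, which passes electrons from the flavoprotein to ubiquinone, had the largest called change of this role in the liver, with 6.37, 6.40 and 6.17 in young and 5.10, 4.75 and 5.84 in aged mice. That change was -1.08 (standard error 0.28, adjusted p = 0.0326), and its kidney change was -1.09 (standard error 0.13, adjusted p = 0.000874). Acads, the short-chain dehydrogenase, was lower by both calls (liver -0.98, kidney -1.37), as was Etfb (liver -0.56, kidney -0.99). The kidney changes of Acadl, Acadvl and Etfa, for long chains, very long chains and electron transfer, were -0.78, -0.89 and -1.23.

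The 8 mitochondrial hydratase, dehydrogenase, thiolase and auxiliary genes were all lower in the kidney, by between -0.50 and -1.17, and 4 of 8 were lower in the liver. Hadh, the dehydrogenase of medium and short chains, had the largest kidney change, with 5.86, 5.77 and 5.82 in young and 4.49, 4.61 and 4.83 in aged mice. Its groups were apart by more than the spread within either, and aged minus young was -1.17 (standard error 0.11, adjusted p = 0.000372). Eci1, an isomerase needed for unsaturated chains, had the largest called change in the liver, with 6.27, 6.62 and 6.16 in young and 5.04, 4.24 and 5.64 in aged mice (-1.38, standard error 0.35, adjusted p = 0.0303). The same gene had the smallest kidney change of the role, -0.50 (adjusted p = 0.00996). Hadha was called lower in the liver (-0.88, adjusted p = 0.0334) and in the kidney (-0.63, adjusted p = 0.00150). Hadhb, which shares its upstream stretch, was lower in the kidney (-0.95, adjusted p = 0.000547) and changed by -0.77 in the liver without passing (adjusted p = 0.0758). The remaining liver calls of this role were Echs1, the short-chain hydratase (-0.75), and Acaa2, the thiolase (-0.76).

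Peroxisomal genes held the largest changes in both directions. Acox2, the oxidase of branched chains and bile acid intermediates, was at 4.70, 4.80 and 4.95 in young and 1.96, 2.52 and 2.92 in aged kidneys. This was the largest change of any member in the kidney, -2.35 (standard error 0.24, adjusted p = 0.000522), or 5.10-fold lower. The liver change of Acox2 was -0.72 (adjusted p = 0.0276). Acaa1b, a peroxisomal thiolase, was at 7.33, 7.25 and 6.99 in young and 5.11, 3.08 and 6.14 in aged livers. Aged mouse 2 lay far below the others and aged mouse 4 nearest to the young mice, and the change of -2.42 had a standard error of 0.70 (adjusted p = 0.0425) and passed in 9 of 18 other settings. Its paralog Acaa1a was not called in the liver (-0.75, adjusted p = 0.0571) and was lower in the kidney (-0.68, adjusted p = 0.00126). A dimmer Acaa1a probe changed by -1.74 in the liver and by -0.73 in the kidney. The liver size of the Acaa1a change therefore depended on the probe. The probes of these paralogs could share targets, which was not tested.

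Ehhadh, the peroxisomal bifunctional enzyme, was lower in the kidney, at 5.70, 5.89 and 5.70 in young and 3.84, 4.14 and 4.93 in aged mice (-1.46, standard error 0.27, adjusted p = 0.00451). In the liver it was at 5.93, 6.05 and 5.81 in young and 4.03, 3.06 and 5.58 in aged mice. No aged liver reached a young one, but aged mouse 4 lay close to them, and the change of -1.71 was not called (standard error 0.57, adjusted p = 0.0636). Lung levels were -0.15, -0.26 and -0.32 against -0.48, -0.43 and -0.25, and WAT levels 1.51, 1.76 and 1.77 against 0.32, 0.77 and 2.14. Both overlapped, and neither was called (lung -0.14, adjusted p = 0.411; WAT -0.60, adjusted p = 0.523). Acox3, Hsd17b4 and Abcd3, a pristanoyl-CoA oxidase, a multifunctional enzyme and an importer of long acyl chains, were lower in the liver (-0.52, -0.84 and -1.14) and in the kidney (-1.46, -0.75 and -0.86). Their liver calls passed in 7, 9 and 10 of 18 other settings. Dimmer probes of Acox3 changed by -0.69 and 0.04 in the liver, so its liver change depended on the probe. Pex11a, which drives peroxisome division, was called in neither tissue (liver -0.47, adjusted p = 0.481), and its kidney change of -0.50 lay just above the threshold (adjusted p = 0.050).

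Abcd2, an importer of very long acyl chains that was brightest in WAT, was the only member called higher in any tissue. In the liver it was at -2.73, -2.09 and -2.90 in young and -0.04, -0.81 and -1.23 in aged mice, which is 1.88 higher (standard error 0.35, adjusted p = 0.0127) or 3.68-fold. All aged livers were above all young ones, and the call passed in 16 of 18 other settings. The adipocyte markers in the same livers had a summed level of 2.06 to 3.91 in young and 0.47 to 3.66 in aged mice, with 3 of 5 tested markers lower and 0 higher. Fibroblast markers were higher there for 5 of 7 and leukocyte markers for 3 of 10, with 0 lower in either list. The part of any cell type in the liver change of Abcd2 was not tested. In the kidney Abcd2 was not tested, since it was well above background on 0 of 3 young and 2 of 3 aged arrays. In WAT its levels were 1.22, 1.91 and 1.93 in young and 0.43, 0.97 and -0.08 in aged mice. The WAT groups did not overlap, and the change of -1.24 was not called (adjusted p = 0.128).

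**Figure D4:**
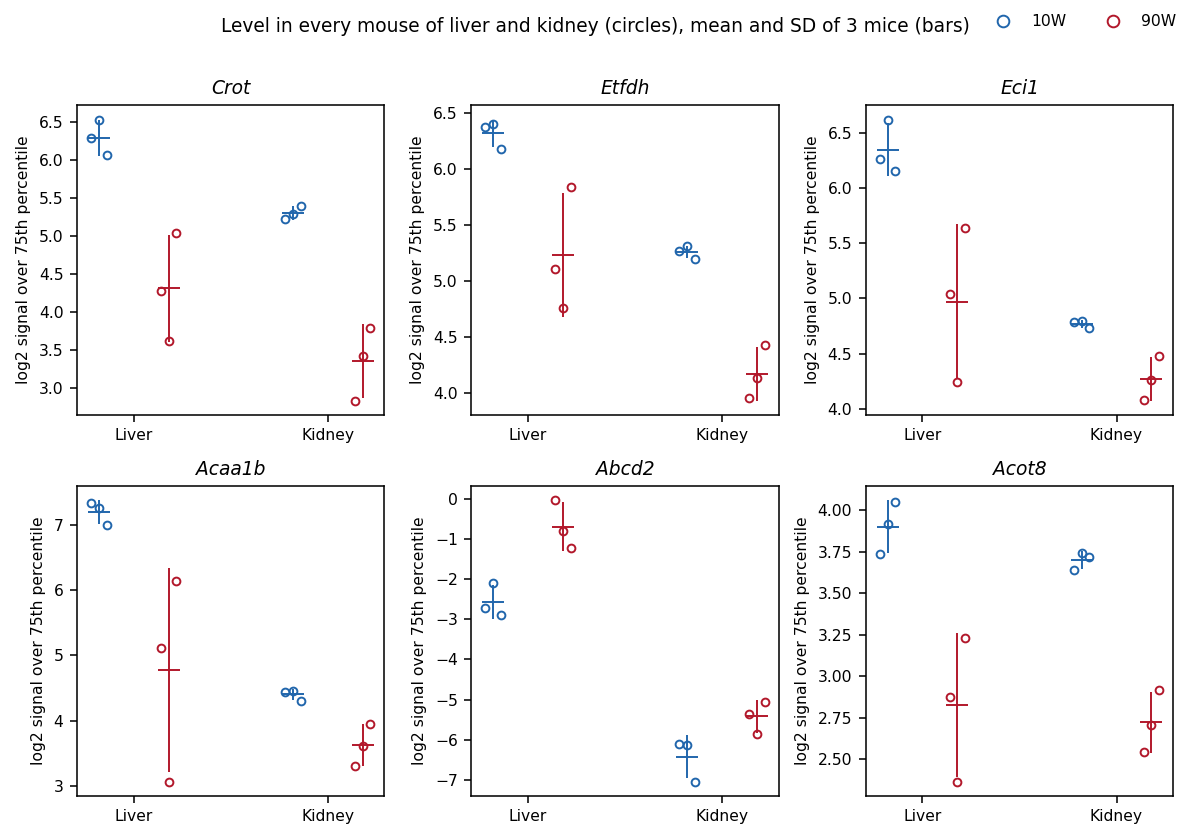
Level of Crot, Etfdh, Eci1, Acaa1b, Abcd2 and Acot8 in every mouse of liver and kidney at 10W (blue) and 90W (red), as log2 signal over the 75th percentile of the array; the horizontal mark is the mean and the bar the SD of 3 mice. The genes are those with the largest called liver change of their role, and Abcd2, the only one that rose; in the kidney no young mouse had Abcd2 well above background.

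Among the 5 acyl-CoA thioesterases, which release free fatty acids from CoA, 3 were lower in the kidney and 1 in the liver. Acot4 was at 2.64, 2.80 and 2.48 in young and 1.30, 1.62 and 1.95 in aged kidneys, without overlap (-1.02, standard error 0.18, adjusted p = 0.00377). Acot8, a peroxisomal thioesterase, was at 3.74, 3.92 and 4.05 in young and 2.88, 2.37 and 3.23 in aged livers, also without overlap (-1.08, standard error 0.24, adjusted p = 0.0218). Its kidney change was -0.98 (adjusted p = 0.000734). Acot1, the cytosolic member, was called lower in the kidney although its groups overlapped (-0.56, adjusted p = 0.0414). In the liver Acot1 was at 5.65, 6.16 and 6.23 in young and 3.78, 1.08 and 6.10 in aged mice, so that aged mouse 4 overlapped the young mice and aged mouse 2 lay far below them, and the change of -2.36 was not called (adjusted p = 0.145). Acot2 and Acot3 were called in neither tissue. In WAT all 5 changes were positive and none was called, with all aged above all young mice for Acot2 (0.43), Acot3 (1.74) and Acot4 (1.62). Acot1, Acot2, Acot3 and Acot4 are related genes of 1 cluster, and whether their probes share targets was not tested.

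Bdh1, the ketone body enzyme among the members, was at 4.62, 4.68 and 4.81 in young and 2.09, 2.84 and 3.29 in aged kidneys. The groups were far apart, and aged minus young was -1.96 (standard error 0.29, adjusted p = 0.00186) or 3.89-fold lower. In the liver it was at 5.67, 5.74 and 5.68 in young and 5.46, 3.26 and 5.10 in aged mice. No aged liver reached a young one, but aged mouse 2 lay far below the other two, and the change of -1.09 was not called (standard error 0.53, adjusted p = 0.158). Lung levels were -0.43, 0.01 and -0.64 against -0.18, -0.62 and -0.29 (-0.01, adjusted p = 0.973). WAT levels were 0.67, -3.32 and -2.53 against -3.08, -2.90 and -2.57 (-1.12, adjusted p = 0.577). Young WAT mouse 1 stood apart in WAT, as it did for Acox3 (4.09, against 2.03 and 2.09 in the other young mice) and Acot1 (2.39, against -1.13 and -0.04). With any 1 mouse left out, the count of members called in WAT remained 0 in each direction. Over all genes, between 0.702% and 1.59% were then higher and between 0.0832% and 0.412% lower, so a count of 0 was near the background.

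In liver and kidney, the same aged mouse was the lowest for most members. Relative to the young mean of each gene, the median over the members was -0.71 in aged liver 1, -1.36 in aged liver 2 and -0.38 in aged liver 4, whereas over all genes it was -0.20, -0.23 and -0.13. Aged liver 2 was the lowest of the 3 aged livers for 33 of 37 members (89.2%), against 40.8% of all genes and 60.2% of the genes called lower in the liver. In the kidney the medians were -1.09, -0.86 and -0.66 in aged mice 1, 2 and 3, and aged mouse 1 was the lowest for 35 of 36 members (97.2%), against 37.6% of all genes and 58.6% of those called lower. In the lung the lowest aged mouse was mouse 1 for 19, mouse 2 for 13 and mouse 3 for 5 of 37 members, and in WAT it was mouse 1 for 23, mouse 2 for 6 and mouse 3 for 8. The young livers and kidneys lay between -0.09 and 0.09. In WAT the young mice ranged from -0.24 to 0.15 and the aged mice from -0.36 to 0.01, and in the lung the aged mice ranged from -0.27 to -0.13. These are descriptions of single mice, and genes of 1 pathway in 1 mouse are not independent.

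**Figure D5:**
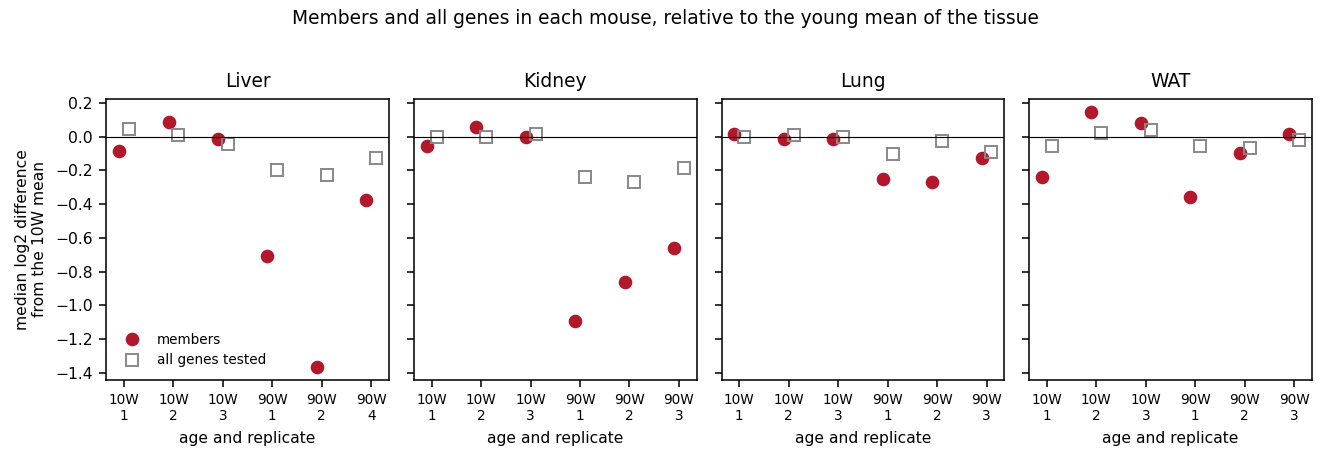
Median over the members (circles) and over all genes tested (squares) of the log2 difference between each mouse and the 10W mean of its tissue, for the 6 mice of liver, kidney, lung and WAT. Aged livers lie at -0.71, -1.36 and -0.38 and aged kidneys at -1.09, -0.86 and -0.66, below the squares of the same mice; lung and WAT mice lie between -0.36 and 0.15.

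Whether the change with age differed between tissues was tested in 1 fit of all 24 arrays by a limma F-test over the 4 changes. It passed for 18 of the 36 members with 1 probe measured in every tissue, beside 37.5% of all genes. With scaling to the spike-in spots 2 members passed (5.56%, beside 17.9% of all genes) and with quantile normalization 8 (22.2%, beside 34.9%), so that under both the members' share fell below that of all genes. Without aged liver 4 it was 28 (77.8%, beside 39.4%). Of the 6 pairs of tissues, the kidney and WAT differed for 16 members, all lower in the kidney (25.1% of all genes differed), and the liver and WAT for 11, all lower in the liver (18.9%). The lung and the kidney differed for 11, all with the lower change in the kidney (23.3%). The liver and the lung differed for 6 of the 36, all lower in the liver, a share near the 16.8% of all genes. No member passed between liver and kidney (9.40% of all genes) or between lung and WAT (3.24%).

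Acot8 had the smallest adjusted p of the F-test among the members (0.000700). Its change in the kidney was lower than in WAT by 1.05 (difference -1.05, standard error 0.23, adjusted p = 0.00321), and its liver change was lower than in WAT (-1.15, standard error 0.23, adjusted p = 0.00232). For Crot the liver and the kidney differed by -0.03 with a standard error of 0.37 (adjusted p = 0.977). Both differed from the lung, the liver by -1.91 and, with the sign turned to lung minus kidney, the kidney by 1.88. Ppara changed more negatively in the kidney than in WAT (-1.49, standard error 0.40, adjusted p = 0.0121), and so did Cpt1a (-1.37, standard error 0.31, adjusted p = 0.00454) and Cpt1b (-2.85, standard error 0.68, adjusted p = 0.00625). For Acadm the difference of 0.95 between liver and kidney had a standard error of 0.31 and did not pass (adjusted p = 0.0646).

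Other genes of the same pathways were counted from lists set by name. In the kidney, 13 of 14 further mitochondrial oxidation genes, 12 of 13 further peroxisomal genes and 6 of 7 further thioesterases were lower, with none higher in these lists. For fatty acid activation and uptake, 9 of 16 were lower and 5 higher there, for regulators and PPARα targets 6 of 16 lower and 5 higher, and for ketone body genes 4 of 7 lower and 2 higher. Over all genes in the kidney, 42.6% were lower and 20.6% higher. The share of regulators and targets lower was below that of all genes. The largest kidney changes called were in Acsm3, a medium-chain acyl-CoA synthetase (-3.32, standard error 0.47, adjusted p = 0.00155), and Fabp1, the liver fatty acid binding protein, which rose by 2.49 (standard error 0.10, adjusted p = 3.22e-05). In the liver, 10 of 13 further peroxisomal genes were lower and 1 higher, 7 of 15 activation and uptake genes were lower and 3 higher, and 4 of 14 mitochondrial genes were lower. For the remaining lists the liver had 3 of 17 regulators and targets lower and 1 higher, 3 of 7 ketone body genes lower and 1 higher, and 1 of 7 thioesterases in each direction. Over all genes in the liver, 17.0% were lower and 10.5% higher. The shares of regulators and targets and of thioesterases lower were near that of all genes. The largest liver changes called were in Nudt7, a peroxisomal CoA diphosphatase (-3.55, standard error 0.54, adjusted p = 0.00731), and Cyp4a10, a fatty acid omega-hydroxylase and classic PPARα target (-2.82, standard error 0.80, adjusted p = 0.0400).

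In the lung, these lists held 2 of 14 mitochondrial, 2 of 13 peroxisomal, 2 of 15 activation and uptake genes and 1 of 16 regulators and targets lower, and no thioesterase called. Of 7 ketone body genes in the lung, 2 were lower and 2 higher. Over all genes in the lung, 2.89% were lower and 2.72% higher. The largest lung changes called were Acsm1 (-1.38, adjusted p = 0.0434) and Slc16a6, a transporter that exports ketone bodies (1.31, adjusted p = 0.0114). In WAT the single gene called over all 6 lists was Slc16a6, which rose by 1.46 (standard error 0.24, adjusted p = 0.0423). Over all genes in WAT, 0.579% were lower and 2.01% higher. In aged WAT, leukocyte markers were higher for 6 of 10 (summed level 4.65 to 5.25 in young, 6.96 to 8.10 in aged), and the hepatocyte markers had a summed level of 7.28 to 8.44 in young and 4.75 to 8.62 in aged mice, with 1 of 6 lower. Ucp1, which defines brown fat, was well above background in 0 of 3 young and 3 of 3 aged WAT samples, and so passed the filter only through the aged mice. The 6 other brown fat markers were not called. The summed level of all 7, Ucp1 included, was 2.83 to 3.18 in young and 3.74 to 5.15 in aged WAT, without overlap, and their median change was 2.05. Their part in the WAT values of the members was not tested.

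Oxct1, the enzyme that activates acetoacetate for use as a fuel, is no member and was singled out after its values were seen, because its calls in liver and kidney had opposite directions. It was higher in the liver, from 0.12 to 0.22 up to 2.16 to 2.62 (2.30, standard error 0.18, adjusted p = 0.00152), and lower in the kidney (-1.43, standard error 0.15, adjusted p = 0.000591).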

How the data were processed

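RNA of 24 mouse tissue samples was measured on 1-colour (Cy3) Agilent arrays. The intensity values were deposited by the authors: per the file headers and the submitters' processing notes, Agilent Feature Extraction 11.0.1.1 wrote a background-subtracted processed signal for each of 62976 spots, in arbitrary units and not scaled between arrays, and a flag for spots well above background. The array design in the files is for mouse (build mm9), although a human kit is named in the methods. Accessions without version were matched to RefSeq symbols (GRCm38.p6), which named 32994 of 56605 probes; no array position is printed. Outlier spots (1841 in all) were left out and no spot was saturated. The log2 signal minus the 75th percentile of the array was used. A probe was kept in a tissue if 3 or more of its 6 arrays had it well above background and all 6 gave a value. Between 58.6% and 71.1% of probes per array were well above background, and arrays of a group correlated at 0.942 to 0.995.

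Ages were compared per tissue by limma 3.58.1 (R 4.3.3), adjusting p-values after Benjamini-Hochberg over every gene and unmatched target; the numbers of mice limit the precision. The fit was tested on simulated data. Members, lists and tests were chosen with earlier results of these data known. Every mouse's value is given for Ppara, Cpt1a, Cpt1b, Ehhadh and Bdh1 and for the largest called change without overlap in each role and tissue; of other pathway genes, the 2 largest called changes per tissue are named. Alternatives were normexp (offset 16), quantile normalization, spike-in scaling, median centring, other probe filters and choices, 1 fit of all arrays, a replicate block, the methods' Student's t-test and each mouse left out. All 4 slides hold 1 tissue each, so no slide block was run. Promoters were searched and figures drawn with Python 3.11.15.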

Additional observations from a re-analysis of the deposited data

Results flagged for a closer look

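The change from 10W to 90W differed between the 4 tissues for 18 members by the limma F-test, with Benjamini-Hochberg adjustment over all 25773 genes tested. In the carnitine shuttle the adjusted p was 0.00906 for Cpt1a, 0.0159 for Cpt1b, 0.0318 for Slc25a20 and 0.00107 for Crot, and it was 0.0244 for the regulator Ppara. Among the dehydrogenases and electron transfer genes it was 0.00443 for Acadm, 0.0212 for Acadl, 0.0390 for Acadvl, 0.00468 for Acads, 0.00116 for Etfb and 0.0156 for Etfdh. Among the other mitochondrial enzymes it was 0.00791 for Hadha, 0.00651 for Hadhb, 0.00369 for Hadh, 0.0264 for Eci1 and 0.0357 for Eci2. In the peroxisome and among the thioesterases it was 0.0355 for Acaa1b and 0.000700 for Acot8. For all 18 the fitted change was negative in liver and kidney and higher in WAT than in both, and it was positive in WAT for 10 and in the lung for 3. The members that did not pass were also negative in liver and kidney. Their change was also higher in WAT than in both, except for Acox2, Pex11a and Bdh1. The pattern therefore does not set the 18 apart, and the F-test picked them on these same changes. These signs are descriptions of the fitted changes; the pairs of tissues that passed a test are given with the report's counts. The F-test treats the arrays as independent, and tissue and slide cannot be told apart. Groups of 3 mice were not searched for single outlying samples.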

How the results depend on the processing

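No single member called in a tissue changed its direction under any alternative run. Over all members, tissues and alternatives, 2417 of 2645 values kept their side of the threshold, 158 no longer passed and 70 passed anew. In the liver, the 16 members called lower (43.2%, beside 17.0% of all genes) became 7 with quantile normalization (18.9%, beside 13.7%), 3 with spike-in scaling (8.11%, beside 3.51%), 25 with all 24 arrays in 1 fit (67.6%, beside 28.0%), 3 with the replicate block (8.11%, beside 2.26%) and 2 with Student's t-test after adjustment (5.41%, beside 6.40%). With 1 mouse left out they were between 1 and 25, and the members' share was below that of all genes without any 1 young mouse and without aged mouse 1. The 1 member higher in the liver became 0 with the replicate block (beside 3.83% of all genes) and 0 with the adjusted t-test (beside 4.73%). In the kidney, the 32 members lower (88.9%, beside 42.6% of all genes) became 20 with spike-in scaling (55.6%, beside 14.0%). They became 23 with quantile normalization (63.9%, beside 37.5%) and 28 with all 24 arrays in 1 fit (77.8%, beside 28.8%). The 0 higher in the kidney became 1 without a filter on dim probes (2.70%, beside 14.5%). In the lung, the 0 lower became 1 with quantile normalization (2.70%, beside 2.65% of all genes). It was also 1 with the filter on all 6 arrays (2.78%, beside 3.78%) and with the mean of a gene's probes (2.70%, beside 2.80%). These shares were near those of all genes. The t-test at an unadjusted p gave 12 lower (32.4%, beside 16.6%) and 1 higher (2.70%, beside 7.61%) in the lung. In WAT, the fit of all 24 arrays gave 1 higher (2.70%, beside 10.9%) and 3 lower (8.11%, beside 10.4%) in place of 0 and 0, and the unadjusted t-test 3 lower (8.11%, beside 8.88%). The 18 of 36 members whose change differed between tissues (beside 37.5% of all genes) became 8 with quantile normalization (22.2%, beside 34.9%) and 2 with spike-in scaling (5.56%, beside 17.9%), below the share of all genes in both, and between 13 and 28 with 1 mouse left out, above it in each case. The cause of these shifts was not tested; leaving out a mouse or adding a block also leaves fewer degrees of freedom. The replicate numbers only name the mice, since young and aged mice are different animals and deviations of same-numbered mice correlated at -0.166 to 0.181. In the liver only numbers 1 and 2 occur at both ages. With the replicate block, 31 members were lower in the kidney (86.1%, beside 40.6% of all genes) and 19 differed between tissues (52.8%, beside 38.7%). None was called in the lung, where the block called 1 gene higher and 0 lower over all genes. None was called in WAT either, beside 1.07% of all genes higher and 0.136% lower. Signal over background limits the dimmest members, such as Abcd2 in the kidney.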
